A study of Mus musculus with 12 samples.

Results

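Glycolytic enzyme genes were followed in the prefrontal cortex of mice after repeated cocaine. The set held 10 genes chosen by name for the reaction that their enzymes catalyse, namely Hk1, Pfkm, Pfkp, Aldoa, Pgk1, Pgam1, Eno1, Eno2, Ldha and Ldhb, out of 40438 gene names that stood in the tables of all 3 time points. All 10 were found in each table, and all 10 were well above the minimum mean level of 1 FPKM (the number of sequenced fragments for a gene, divided by transcript length and by library size). Male C57BL/6 mice (C57BL/6 J in the methods) aged 10 weeks received 1 intraperitoneal injection of saline or of cocaine (20 mg/kg) on each of 14 days, and the tissue was taken 2 h, 24 h or 7 d after the last one. Saline and cocaine groups were made separately at each time, which gave 6 groups. Tissue of 5 mice was pooled for 1 library, and with 2 libraries in a group the 12 libraries covered 60 mice. No genetic change or transgene was involved, and all animals went through the injections.

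The tables give 1 FPKM per group, already pooled over its 2 libraries. The spread between replicates therefore cannot be computed from them, and the values below are given without a test or an error. The results of the authors' own test in the tables were not used here, and the depth of the libraries is unknown from the tables. Differences are given as descriptions, on the log2 scale after 1 was added to each FPKM (cocaine less saline, so that a negative value is lower after cocaine). Each time point was normalised on its own, so levels set side by side across times also carry that step. A log2 difference of 0.2 or more in size is called past the fold.

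Glycolysis turns glucose into pyruvate in the cytosol and yields ATP and NADH. Hexokinase traps glucose in the cell, phosphofructokinase commits it to the pathway, and aldolase splits the sugar into trioses that phosphoglycerate kinase, phosphoglycerate mutase and enolase carry on towards pyruvate. Lactate dehydrogenase interconverts pyruvate and lactate. In brain, glucose is the main fuel, and exchange of lactate between astrocytes and neurons is much studied.

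The tissue carried the markers of cerebral cortex. Slc17a7, the vesicular glutamate transporter of cortical excitatory neurons, lay between 466 and 532 FPKM in the 6 groups. Markers of striatum (4 genes) summed to between 3.49 and 4.21 FPKM in a group, and those of choroid plexus (4 genes) to between 1.38 and 7.40, with the highest sum in cocaine at 7 d, where Ttr read 6.54 FPKM against 0.284 in saline. In such bulk tissue, fewer cells of a type and less RNA per cell cannot be told apart.

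The enzyme genes were among the most abundant transcripts of the cortex, at or above the 90.8th percentile of all genes at the minimum level in every comparison. Aldoa, the muscle-type aldolase that is also widespread in brain, was highest, with a median of 1020.0 FPKM over the 3 saline groups and a range of 1019 to 1062. Ldhb followed at 411, then Eno1 at 338, Eno2 at 283, Pgam1 at 264, Ldha at 209 and Pgk1 at 153. The genes of the first steps were lowest, Pfkm at 117, Hk1 at 90.4 and Pfkp at 65.2 FPKM. FPKM is per length of transcript, so these levels can be compared between genes, and Aldoa stood 15.6 times above Pfkp. Neighbours in this order did not overlap over the saline groups, except Eno2 (273 to 283 FPKM) and Pgam1 (261 to 286 FPKM). The plot of levels shows each gene at nearly one height in all groups.

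**Figure D1:**
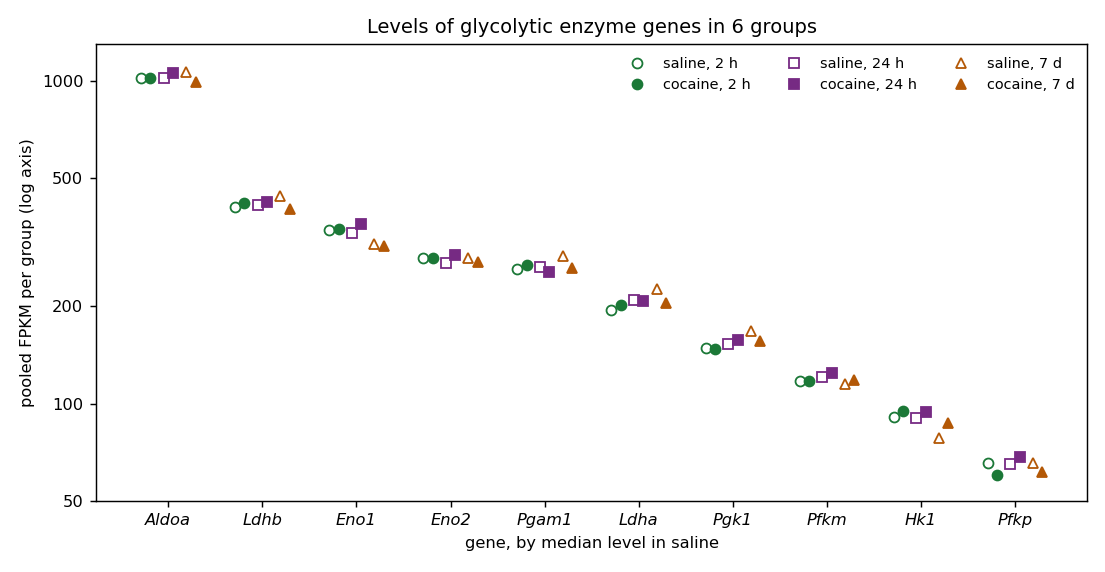
Pooled FPKM of each gene on a log axis, ordered by the median of the saline groups, with open symbols for saline and filled ones for cocaine (circles 2 h, squares 24 h, triangles 7 d; 1 pooled value per group, so no error bars). Aldoa lies near 1020.0 FPKM and Pfkp near 65.2, and within each gene the saline and the cocaine symbols overlap.

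Over the 6 groups the highest value of a gene was between 1.06 times (Eno2) and 1.21 times (Hk1) its lowest. The median of this ratio was 1.13 for the 10 genes, 1.25 for all 13593 genes at the minimum level at every time, and 1.18 for the 1629 of them with a mean of at least 50 FPKM, a class of abundant genes added after the values were seen. For each of the 10 genes the range of the 3 cocaine values overlapped that of the 3 saline values. The share of all genes with such overlap is not given here. Each range also spans 3 separately normalised times, so the overlap cannot be called a trait of the enzymes.

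Hexokinase 1 was the gene with the widest range. Its locus lies at chr10:62268855-62379908, given like those below on GRCm38 and as in the 2 h table (a few starts or ends differ slightly at 7 d). In saline, Hk1 read 91.1, 90.4 and 78.3 FPKM at 2 h, 24 h and 7 d, and in cocaine 94.7, 94.1 and 87.1. The saline group at 7 d was the lowest of the 6, and cocaine was above saline at every time, by 0.06, 0.06 and 0.15 on the log2 scale. Pfkm, the muscle-type phosphofructokinase (chr15:98038744-98132447), was likewise higher at every time, but by less. It read 117.3, 120.6 and 114.7 FPKM in saline against 117.7, 124.7 and 118.6 in cocaine, with differences of 0.00, 0.05 and 0.05. Hk1 and Pfkm were thus higher in cocaine at all 3 times, 2 of the 10 genes, as were 18.8% of all genes, and 0 of the 10 were lower at all 3 times, against 14.6% of all genes.

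Pfkp, the platelet-type phosphofructokinase (chr13:6548157-6648777), changed sign between the times. Saline held steady at 65.5, 65.2 and 65.2 FPKM while cocaine read 60.0, 68.5 and 61.5. Its differences were -0.12, 0.07 and -0.08, and the value at 2 h was the lowest of the 10 genes at that time.

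The genes of the middle steps moved little at 2 h and 24 h. Aldoa (chr7:126795191-126800751) read 1019, 1020.0 and 1062 FPKM in saline and 1019, 1055 and 989 in cocaine, which are differences of 0.00, 0.05 and -0.10. Pgk1, the phosphoglycerate kinase that makes the first ATP of the pathway (chrX:106187100-106203699), read 148.7, 153.4 and 167.5 FPKM in saline and 148.0, 157.2 and 156.1 in cocaine, or -0.01, 0.03 and -0.10. At 7 d both had their highest saline value, and in cocaine only Aldoa went below every other group. Pgam1, the brain-type phosphoglycerate mutase (chr19:41911871-41918664), read 261.4, 264.1 and 286.4 FPKM in saline and 269.6, 255.3 and 263.1 in cocaine, or 0.04, -0.05 and -0.12. Its saline value at 7 d was again the highest of the 6.

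The enolases differ in where they are found, Eno1 being widespread and Eno2 typical of neurons. Eno1 (chr4:150236721-150248879) read 343.8, 338.1 and 313.0 FPKM in saline and 348.5, 359.4 and 308.5 in cocaine, with differences of 0.02, 0.09 and -0.02. Both groups at 7 d lay below all groups at 2 h and 24 h. Eno2 read 283.0, 272.6 and 283.1 FPKM in saline and 281.8, 289.6 and 274.1 in cocaine, or -0.01, 0.09 and -0.05. At 2 h and 24 h its row was shared with the neighbouring gene Lrrc23 (chr6:124760053-124779727), so those values cannot be split. At 7 d Eno2 had a row of its own (chr6:124760053-124769673), and Lrrc23 read 0.377 FPKM there in saline, against 0.491 in cocaine.

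Ldha, the lactate dehydrogenase subunit of muscle type, and Ldhb, that of heart type, form the tetramers that carry pyruvate to lactate and back. Ldha (chr7:46841475-46855629) read 195.6, 209.4 and 226.7 FPKM in saline and 202.1, 208.4 and 205.4 in cocaine. The differences were 0.05, -0.01 and -0.14, the last being the lowest of the 10 genes at 7 d. Ldhb (chr6:142490248-142507957) read 406.5, 411.1 and 438.7 FPKM in saline and 417.9, 419.8 and 401.3 in cocaine, or 0.04, 0.03 and -0.13. The subunits had opposite signs at 24 h and the same sign at 2 h and 7 d, and both had their highest value of all in the saline group at 7 d.

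The promoters of this pair are shown because they differ in a short motif. The motif is ACGTG, the core letters of the element that hypoxia-inducible factors bind, searched on both strands in RefSeq promoter windows (GRCm38.p6, 250 bases before to 50 after each start). The pair was chosen after the motif counts were seen, and the 250 bases before the start are given, with matches in capitals. Where ACGTG overlaps its reverse complement the run reads CACGTG, which is also the E-box that MYC and USF factors bind. RefSeq lists more than 1 window for Ldha, and the one with the most matches is printed; its other window held 0. The Ldha promoter printed is chr7:46845554-46845803 on the plus strand and the Ldhb promoter is chr6:142507958-142508207 on the minus strand.
Ldha: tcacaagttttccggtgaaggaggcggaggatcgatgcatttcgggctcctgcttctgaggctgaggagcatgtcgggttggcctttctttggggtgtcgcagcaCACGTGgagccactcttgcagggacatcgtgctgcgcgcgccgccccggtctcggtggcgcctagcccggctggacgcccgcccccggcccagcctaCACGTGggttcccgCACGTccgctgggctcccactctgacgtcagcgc
Ldhb: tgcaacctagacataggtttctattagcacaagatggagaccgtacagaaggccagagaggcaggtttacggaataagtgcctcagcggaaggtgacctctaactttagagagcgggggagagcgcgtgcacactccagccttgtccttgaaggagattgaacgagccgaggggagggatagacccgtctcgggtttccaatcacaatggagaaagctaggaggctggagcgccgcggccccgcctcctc
The Ldha promoter printed held 3 stretches with the motif, of which 2 read CACGTG, and the Ldhb promoter held 0. Over the 10 genes, 8 of 19 windows held ACGTG (42.1%), against 19.6% of 32851 windows of all genes. Counted by gene, Hk1, Pfkm, Aldoa, Pgk1, Pgam1 and Ldha had a window with it, 6 of 10 (60%) against 21.8% of 27025 genes. CACGTG stood in 2 of the 19 windows (10.5%) and in 7.15% of all windows. A gene with more windows has more places for a match, and the 10 genes held 19 windows, against 32851 for 27025 genes. Some windows of a gene overlap, as did those of Aldoa with the motif, and a match is only a run of letters.

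Seen as a set, the enzymes leaned slightly upward at 24 h and downward at 7 d in the values as deposited. Scaling by the sum over rows of at least 300 bases turned both signs. With the summed FPKM of protein-coding rows set equal, the lean at 7 d was all but gone, with a median of -0.0021 and 5 enzymes higher and 5 lower. At 2 h the enzymes' median was near 0. Its sign turned also under that scaling and when all genes were centred on their median. At 2 h, 0 of 10 genes were past the fold in either direction, where 12.2% of all 13974 genes were higher and 8.2% lower past it. Of the 1633 abundant genes, 6.55% were higher and 2.69% lower past it. By sign alone 7 of 10 were higher and 3 lower, where the shares were 56.4% and 43.6% of all genes and 60.1% and 39.9% of the abundant ones. The median difference was 0.01, against 0.02 for all genes and for abundant genes. At 24 h again 0 of 10 were past the fold, with 6.88% of 14174 genes higher and 6.0% lower, and 2.95% and 4.15% of the 1663 abundant genes. By sign 8 of 10 were higher and 2 lower, where the shares were 53.0% and 47.0% of all genes and 48.3% and 51.7% of the abundant ones. The median of 0.05 compares with 0.01 for all genes and -0.00 for abundant genes.

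At 7 d the signs turned, and 8 of 10 genes were lower in cocaine, all but Hk1 and Pfkm. Again 0 of 10 passed the fold, where 9.52% of 14061 genes were higher and 14.6% lower past it, and 5.54% and 24.5% of the 1643 abundant genes. Among all genes 47.3% were higher and 52.7% lower by sign, and among the abundant ones 32.1% and 67.9%. The median of the enzymes was -0.09, that of all genes -0.01 and that of abundant genes -0.08. The enzymes thus lay close to other abundant transcripts at 7 d. Summed over the 10 genes, the level at 2 h was 2932 FPKM for saline and 2960 for cocaine. The sums at 24 h were 2945 and 3032, and those at 7 d were 3036 and 2865.

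**Figure D2:**
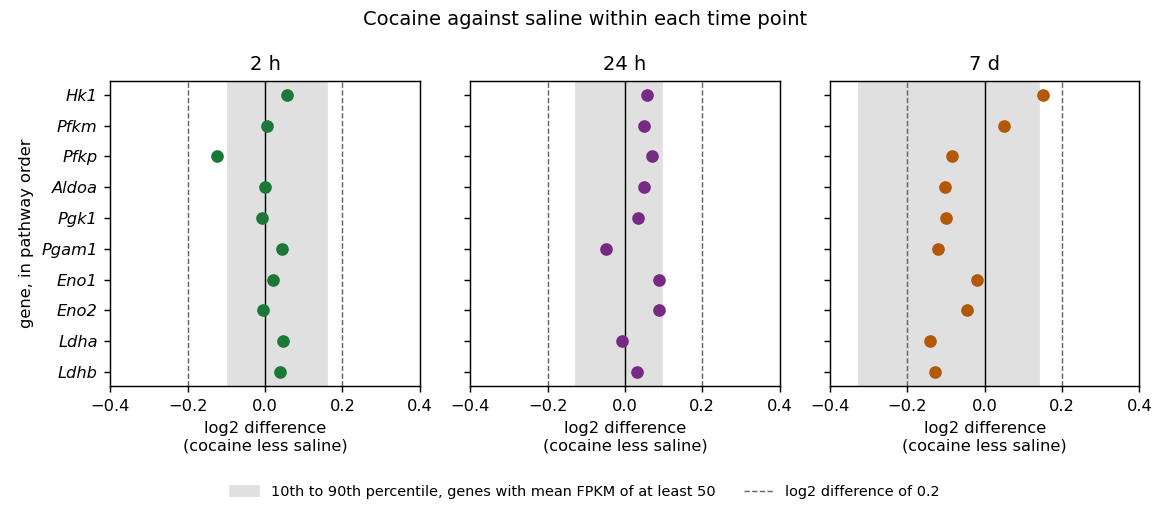
Log2 difference in FPKM (cocaine less saline, 1 added to each) of each gene in pathway order, at 2 h, 24 h and 7 d, with a grey band from the 10th to the 90th percentile of genes with a mean of at least 50 FPKM and dashed lines at 0.2 in size; each point is 1 pooled comparison with no error. No point crosses the dashed lines, and 8 of 10 points lie left of 0 at 7 d in the values as deposited (5 of 10 with coding sums set equal).

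The saline group at 7 d was set against the other groups in a comparison chosen after the values were seen. As deposited, it was the highest of the 6 groups for 5 of the 10 genes (Aldoa, Pgk1, Pgam1, Ldha and Ldhb). It was the lowest for Hk1 and Pfkm, and neither for Pfkp, Eno1 and Eno2. Among all genes it was highest for 26.1% and lowest for 29.1%, 55.3% together, against 7 of the 10 enzymes. The cocaine group at 7 d was lowest for 3 genes (Aldoa, Eno1 and Ldhb) and highest for 0, against 17.5% and 7.81% of all genes (25.3% together). Its values lay inside the range of the 4 groups at 2 h and 24 h for 6 of the 10 genes and for 55.7% of all genes, and those of the saline group for 2 of the 10 and for 37.0% of all genes.

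Scaling bore on the sign at 7 d. The FPKM of protein-coding rows, leaving out rows of 5000 FPKM or more, summed to less in cocaine than in saline at 7 d by -0.09 on the log2 scale, whereas the sums differed by 0.03 at 2 h and by 0.02 at 24 h. With these sums set equal, an alternative added after the data were seen, the median of the enzymes was -0.01, 0.03 and -0.00 at the 3 times, beside -0.00, -0.01 and 0.07 for all genes. At 7 d 5 genes were then higher and 5 lower, and at 2 h 4 were higher and 6 lower. Hk1 at 7 d came to 0.24, past the fold. With the sums of all 6 groups set equal, the saline group at 7 d was highest for 4 enzymes and lowest for 3. The cocaine group at 7 d was then highest for 1 and lowest for 0. Among all genes these shares were 18.0%, 39.3%, 18.4% and 5.88%. The saline group at 2 h was then highest for 4 enzymes and 18.3% of all genes, against 0 and 10.2% as deposited. The cocaine group at 24 h was then highest for 0 enzymes and 9.93% of all genes, against 4 and 17.4% as deposited. All genes thus shifted in the same directions as the enzymes.

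Transcript length also went with the differences at 7 d. The longest coding transcripts of the set run from 1304 nt (Ldhb) to 4278 nt (Hk1). Over all genes with a known length (83.9% at 7 d, and all 10 enzymes), the median difference at 7 d climbed from -0.21 in the shortest of 20 groups, of median length 668 nt, to 0.12 in the longest, of 9113 nt. Over the 10 enzymes Spearman's rho of difference and length took the values -0.08, 0.54 and 0.83 at the 3 times in order, a description over genes that share their libraries. With the median of the like-length group taken out, the enzymes had a median of 0.01, 0.04 and -0.02, and at 7 d 3 were higher, 6 lower and Aldoa at 0. Single values then ran from -0.12 (Pfkp) to 0.11 (Hk1) at 7 d.

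**Figure D3:**
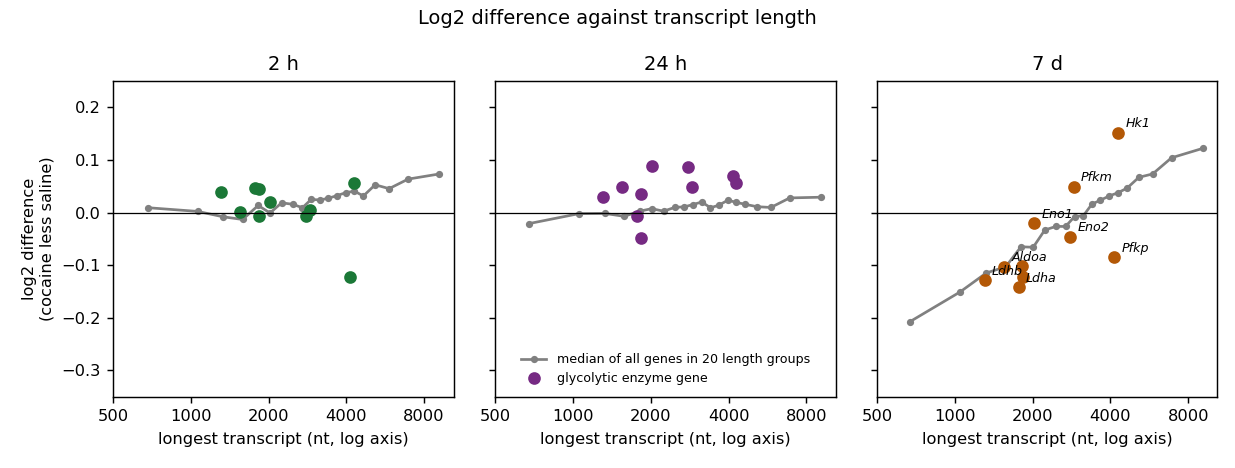
Log2 difference in FPKM (cocaine less saline) against the length of the longest coding transcript on a log axis at each time, with coloured points for the 10 genes and a grey line for the median of all genes in 20 groups of length. At 7 d the grey line climbs from -0.21 to 0.12, and Ldha, at -0.14, lies below it while Hk1, at 0.15, lies above.

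The isozyme shares, which no scaling of a group can alter, were nearly constant. Pfkm made up 64.2%, 64.9% and 63.7% of Pfkm plus Pfkp in saline and 66.2%, 64.6% and 65.9% in cocaine at 2 h, 24 h and 7 d. Cocaine thus held 2.04 points more Pfkm at 2 h and 2.14 points more at 7 d, but less by -0.36 points at 24 h. Eno1 made up 54.9%, 55.4% and 52.5% of Eno1 plus Eno2 in saline and 55.3%, 55.4% and 52.9% in cocaine. The lower share at 7 d was thus common to both treatments. Eno2 shared its row with Lrrc23 at 2 h and 24 h but not at 7 d, so this step in time also carries a change of row. Ldha made up 32.5%, 33.7% and 34.1% of Ldha plus Ldhb in saline and 32.6%, 33.2% and 33.9% in cocaine. Its differences of 0.12, -0.57 and -0.22 points were smaller than the range of the saline groups over time.

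**Figure D4:**
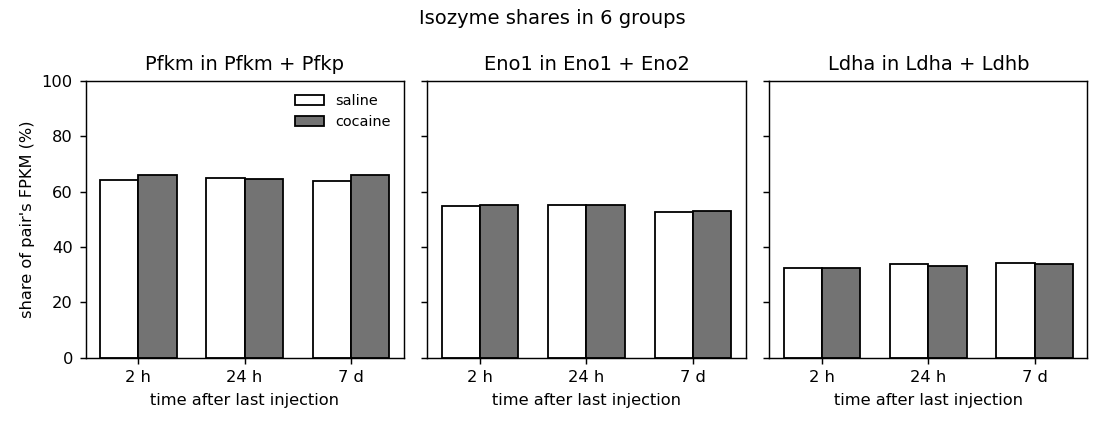
Share (%) of Pfkm in Pfkm plus Pfkp, of Eno1 in Eno1 plus Eno2 and of Ldha in Ldha plus Ldhb, from pooled FPKM, with open bars for saline and grey bars for cocaine at each time (no error can be given). The shares stay within 63.7 to 66.2%, 52.5 to 55.4% and 32.5 to 34.1%. Eno2 shared its row with Lrrc23 at 2 h and 24 h only.

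Some of the enzymes have near-identical copies elsewhere in the genome, and their levels are uncertain. The authors kept only uniquely mapping reads, so reads that fit a gene and its copy equally well count for neither. Eno1b read 34.5, 28.1 and 30.9 FPKM in saline, or 10%, 8.3% and 9.89% of Eno1. Pgk1-rs7 stood at 11.8% to 13% of Pgk1 and Pgam1-ps2 at 13.9% to 14.2% of Pgam1 in saline. Pgk1-rs7 was lower in cocaine at 7 d, 21.7 against 17.9 FPKM (-0.27). The highest value of Pgam1-ps1 was 0.359 FPKM, and Ldha-ps and Ldha-ps2 lay below it in every group.

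The remaining enzymes of the pathway, 20 genes listed by name, are given for comparison. In time order, 12, 12 and 13 of them stood at the minimum level. Past the fold, 2, 1 and 0 were higher and 2, 1 and 1 lower, beside 12.2%, 6.88% and 9.52% of all genes higher and 8.2%, 6.0% and 14.6% lower. The medians were 0.01, 0.07 and -0.06. Gapdh, the glyceraldehyde-phosphate dehydrogenase often used as a reference gene, read 1177 FPKM for saline and 1237 for cocaine at 2 h. The pair of values was 1179.6 and 1207 at 24 h, then 1245 and 1139 at 7 d. Its differences of 0.07, 0.03 and -0.13 were like those of Ldhb. Tpi1, triose-phosphate isomerase, differed by 0.01, 0.03 and -0.14, and Gpi1, glucose-phosphate isomerase, by 0.01, 0.08 and -0.08. Pkm, the pyruvate kinase of brain, differed by 0.06, 0.08 and 0.02, and Pfkl, the liver-type phosphofructokinase, by 0.06, 0.11 and 0.03.

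Aldoc, the aldolase of astrocytes, was the abundant exception at 2 h. It read 515 FPKM for saline and 602 for cocaine (0.23), and 0.05 and 0.09 were its differences at 24 h and 7 d. Its row was shared with Pigs at 2 h and 24 h. Hk2, an inducible hexokinase, was scarce and turned over between the times, reading 0.786, 0.775 and 2.23 FPKM in the saline groups and 1.67, 1.72 and 1.17 in the cocaine groups (0.58, 0.62 and -0.57). Its saline group at 7 d was the highest of the 6. Also scarce were Pgam2, the muscle-type mutase (-0.20, -0.24 and -0.01), and Eno3, the muscle-type enolase (-0.32, 0.07 and -0.06). Bpgm, which makes 2,3-bisphosphoglycerate, differed by -0.07, -0.11 and -0.10, Adpgk by -0.02, 0.14 and -0.12, and Hkdc1 by -0.03, 0.20 and 0.02, the 24 h value falling just short of the fold. Hk3, Eno4, Pgk2, Pklr and Ldhc stayed under the minimum at all times. Gapdhs did so at 2 h and 24 h, and its 47.5 FPKM at 7 d belong to a row shared with Tmem147.

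Carriers and regulators around the pathway form short lists, and their counts are to be read beside the shares of all genes past the fold at the 3 times, 12.2%, 6.88% and 9.52% higher and 8.2%, 6.0% and 14.6% lower. Of 10 carriers of glucose, lactate and pyruvate, 8, 9 and 8 were at the minimum, and 2, 0 and 0 were higher and 1, 0 and 2 lower past the fold, with medians of 0.01, 0.02 and -0.06. Slc2a1, the glucose carrier of the blood-brain barrier and of astrocytes, read 36.1 FPKM for saline and 49.1 for cocaine at 2 h (0.43), then 36.5 and 40.4 (0.15), then 28.0 and 31.4 (0.16). Slc2a3, the neuronal glucose carrier, read 31.2 and 36.1 FPKM at 2 h (0.20), and Slc2a6 read 9.31 and 7.40 (-0.29). At 7 d the subunits of the mitochondrial pyruvate carrier were lower, Mpc1 at 169.8 and 136.2 FPKM (-0.32) and Mpc2 at 94.6 and 69.3 (-0.44). For both, the saline group at 7 d was the highest of the 6.

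Of 8 regulator genes in the tables, 5 were at the minimum at each time, with 2, 0 and 0 higher and 0 lower past the fold and medians of 0.03, 0.05 and -0.02. Pfkfb3, which makes the activator of phosphofructokinase, read 4.90 and 7.06 FPKM at 2 h (0.45), and Pgp, phosphoglycolate phosphatase, read 43.2 and 49.9 (0.20). Of 11 genes of the pyruvate dehydrogenase complex and its kinases and phosphatases, all at the minimum, 2, 0 and 0 were higher and 0, 1 and 1 lower past the fold. Their medians were -0.02, -0.05 and 0.02. Pdp1, a phosphatase that activates the complex, read 43.4 and 64.4 FPKM at 2 h (0.56), then 0.17 and 0.07 were its differences. Pdk4, a kinase that inhibits it, read 3.61 and 4.45 FPKM at 2 h (0.24) and 5.02 and 3.62 at 24 h (-0.38). Dld, the lipoamide dehydrogenase subunit, read 53.7 and 43.2 FPKM at 7 d (-0.31).

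**Figure D5:**
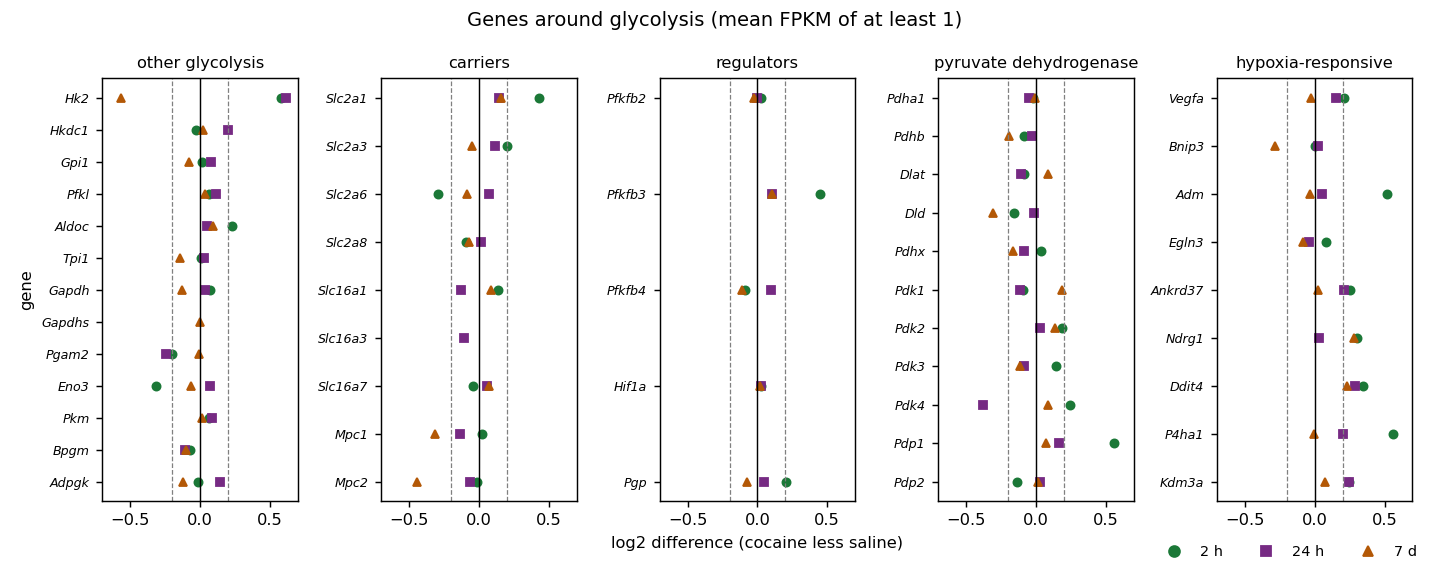
Log2 difference in FPKM (cocaine less saline) at 2 h (circles), 24 h (squares) and 7 d (triangles) of genes with a mean of at least 1 FPKM in 5 lists around glycolysis, with dashed lines at 0.2 in size and no error for any point. At 2 h Slc2a1, Pfkfb3 and Pdp1 lie right of the dashed line at 0.43, 0.45 and 0.56, and at 7 d Mpc2 lies left of it at -0.44.

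A list of 10 genes responsive to hypoxia, which often covers glycolytic enzymes too but here held none of them, leaned upward at 2 h. Of 9 genes at the minimum, 7, 4 and 2 were higher past the fold at the 3 times in order, and 0, 0 and 1 were lower. Among all genes 12.2%, 6.88% and 9.52% were higher and 8.2%, 6.0% and 14.6% lower past the fold. The medians of the list were 0.25, 0.15 and -0.01, against 0.01, 0.05 and -0.09 for the 10 glycolytic enzymes. P4ha1, a collagen prolyl hydroxylase, read 9.54 and 14.5 FPKM at 2 h (0.56), and Ddit4, an inhibitor of mTORC1 signalling, differed by 0.35, 0.29 and 0.23. Hif1a itself differed by 0.03, 0.03 and 0.02.

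Markers of other cells moved between the groups, and their part in the values above was not tested. All 5 astrocyte markers were higher in cocaine at 2 h and 7 d and lower at 24 h, with summed levels of 319, 367 and 313 FPKM in the saline groups and 351, 327 and 351 in the cocaine groups. The medians at the 3 times were 0.15, -0.22 and 0.14 for these markers and 0.01, 0.05 and -0.09 for the glycolytic enzymes as deposited. All 5 oligodendrocyte markers were lower at 2 h and 24 h (624 and 583, then 748 and 618 FPKM), and 3 of 5 at 7 d (732 and 721). All 5 red blood cell markers were higher past the fold at 2 h, against 12.2% of all genes, with sums of 323 and 504 FPKM. All 4 endothelial markers were higher at 2 h (61.0 and 67.5 FPKM) and at 7 d (67.3 and 74.8), and 3 of 4 were lower at 24 h. Among all genes, 56.4%, 53.0% and 47.3% were higher by sign at the 3 times and 43.6%, 47.0% and 52.7% lower. None of the markers in these lists was at 0 in both groups of a time point.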

How the data were processed

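Prefrontal cortex RNA of 12 libraries in 6 groups (2 libraries per group, 5 mice each) was sequenced. After trimming, reads were aligned by the authors (TopHat2), those mapping uniquely were retained, and Cuffdiff was run once per time point on saline and cocaine. The submitters' processing notes name CASAVA 1.8.2, Trimmomatic 0.32, TopHat2 2.0.12 and Cufflinks 2.2.1. The deposited FPKM values, 1 per group and locus, are pooled over libraries and come without depth, for which the paper gives a range of reads per replicate. The deposited tables also hold fold changes, test statistics, p-values and q-values of the authors' own comparison, which were not used. The first value column was taken as saline, from the study's own tables, because the column names alone are ambiguous. Positions are GRCm38, as the processing notes and loci show, although the methods name mm9.

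Values were handled in Python 3.11.15 with pandas 2.3.3 and numpy 2.4.6. A name on several rows took the longest locus, and genes had a mean of at least 1 FPKM. Lengths are the longest coding transcript of GENCODE vM1, used for length only, and promoters are from RefSeq. The differences, counts and length trend were checked on simulated data with planted differences well past the fold. That check does not bear on differences as small as those of the enzymes. The members and lists were chosen with earlier results of these data known. Genes named were the 10 enzymes, the list of other glycolysis genes (some of its genes are not reported here), carriers, regulators and pyruvate dehydrogenase genes past the fold at any time, and markers with their levels. Hif1a, P4ha1, Ddit4 and the genes named in the closing paragraphs were added after their values were seen, as were the limits of 0.05 (log2) and 1 point by which a value was said to move. The symbols Tigar and Tubb3 were not matched and not analysed here. No test was computed here, since the tables hold no value per library.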

Additional observations from a re-analysis of the deposited data

Results flagged for a closer look

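The genes around glycolysis with a difference past the fold in opposite directions at separate times were Hk2 and Pdk4. Hk2 was higher in cocaine at 2 h (0.58) and at 24 h (0.62) and lower at 7 d (-0.57), at levels between 0.775 and 2.23 FPKM. Pdk4 was higher at 2 h (0.24) and lower at 24 h (-0.38), at levels between 3.61 and 5.02 FPKM. With 1 pooled value per group the difference between times was not tested for either gene.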

How the results depend on the processing

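No value has a replicate error, so a count of 0 genes past the fold says only that no pooled difference reached 0.2. Of the values that answer a comparison, 213 stayed within the limits under the alternatives and 45 moved. The tally includes alternatives that could hardly change the enzymes, such as the choice of row, which moved no enzyme difference by more than 0.0019. No paired analysis was possible because each group has 1 pooled value, and leaving out each replicate was not run for the same reason. The sign of the enzymes' median was kept under each choice of row, of pseudocount and of low filter, but not under each scaling: at 2 h it was -0.01 when centred on all genes and with equal coding sums. TPM over all rows brought the values near 0, since rows under 300 bases hold nearly all of the sum and no enzyme gene was above 0.261 TPM, far under the added 1. The median at 7 d was then -0.019, and 0 other glycolysis genes passed the fold at any time in either direction. TPM over rows of at least 300 bases, added after the data were seen, turned the sign at every time, with medians of -1.37, -3.44 and 0.39. In time order 10, 10 and 0 enzymes were lower and 0, 0 and 10 higher, and 11, 12 and 0 other genes were lower and 0, 0 and 10 higher. All genes then had medians of -0.998, -2.34 and 0.30, past the fold in the same directions as the enzymes. The share of all genes past it under this scaling is not given here, so the counts do not set the enzymes apart. Equal coding sums, chosen once those values were seen, left 1 other gene higher at 2 h, and at 7 d 1 enzyme higher (Hk1) and a median of -0.0021. With the length trend out, the median at 7 d was -0.0167 and 1 other gene was higher. A pseudocount of 0 or 0.1 gave 2 other genes higher at 24 h. The shares of all genes past folds of 0.1 and 0.3 are not given here, so counts at these folds do not set the enzymes apart. Abundant genes as a class had a median of -0.08 at 7 d. A fold of 0.1 gave 1 enzyme lower at 2 h, and 1 higher and 5 lower at 7 d. Of other glycolysis genes it gave 4 higher and 2 lower at 24 h and 4 lower at 7 d. A fold of 0.3 left 1 other glycolysis gene higher and 1 lower at 2 h and 0 lower at 24 h. A minimum of 10 FPKM left 1 higher and 0 lower at 2 h and 0 at the later times. Adding the copies, also an added alternative, put the Eno1 share at 57.2%, 57.3% and 54.9% in the saline groups and 57.5%, 57.4% and 55.1% in the cocaine groups.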

Other observations

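Genes of neighbouring pathways are given beside all genes, of which 12.2%, 6.88% and 9.52% were higher and 8.2%, 6.0% and 14.6% lower past the fold at the 3 times. Of 7 pentose phosphate genes, 0, 1 and 0 were higher and 0, 1 and 1 lower past the fold at 2 h, 24 h and 7 d, with medians of 0.03, -0.01 and -0.02. At 24 h G6pdx, the entry enzyme of that pathway, read 9.66 FPKM for saline and 8.16 for cocaine (-0.22), and Rpia read 3.38 and 4.29 (0.27). Taldo1, transaldolase, read 67.1 and 55.8 FPKM at 7 d (-0.26). Of 16 glycogen genes, 2, 0 and 2 were higher and 0 lower past the fold, with medians of 0.05, -0.01 and -0.05. Pygb, the brain-type glycogen phosphorylase, read 43.8, 49.97 and 39.96 FPKM in the saline groups and 51.7, 47.5 and 48.2 in the cocaine groups (0.23, -0.07 and 0.26). Its signs at the 3 times were those of the astrocyte markers. Of the malate-aspartate and glycerol phosphate shuttle list, 8 of 9 genes were at the minimum, with medians of 0.02, 0.02 and -0.06. Only Mdh1, cytosolic malate dehydrogenase, was past the fold among them, at 461 and 381 FPKM at 7 d (-0.27), and its saline group at 7 d was the highest of the 6.

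The other marker lists differed as follows. The 5 markers of cortical excitatory neurons had medians of 0.03, 0.03 and 0.05 in time order, and at 7 d Neurod6 (-0.39) and Camk2a (0.24) lay past the fold in opposite directions. The 3 inhibitory markers had medians of 0.04, 0.02 and 0.05, the 3 general neuronal markers found -0.00, -0.05 and 0.04, and the 4 microglial markers 0.03, -0.12 and 0.01. Among the microglial markers Tmem119 (0.32) was past the fold at 2 h, and Cx3cr1 (0.25) and Aif1 (-0.23) were at 7 d.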
